A study of Mus musculus with 12 samples.

Results

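Respiratory complex I is the NADH dehydrogenase of the inner mitochondrial membrane, and its nuclear genes were followed in mouse osteoclasts exposed to supernatant of necrotic osteocytes. The set comprised the 46 protein-coding genes whose symbol starts with Nduf, among 46983 genes in the deposited count table. Of these, 36 encode subunits of the complex, 7 core and 29 accessory, and 8 encode assembly factors named Ndufaf. The other 2 were Ndufa4, whose product is now assigned to cytochrome c oxidase, and its paralog Ndufa4l2. A total of 45 members were among the 14153 genes that passed the filter on low counts. Ndufa4l2 was the one that did not, with 25 reads over all 12 libraries.

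The cells were osteoclasts, the bone-resorbing cells, grown from bone marrow monocytes of wildtype C57BL/6 mice (WT) or of Mincle knockout mice on the same background (KO). Mincle, encoded by Clec4e, is a receptor of the C-type lectin family found on myeloid cells. All cultures held the factors that drive osteoclast formation, RANKL at 10 ng/ml and M-CSF at 20 ng/ml. On day 1 they were given osteocyte supernatant for 24 h, from viable osteocytes as the control or from osteocytes killed by serum starvation, and RNA was taken on day 3. The 4 groups, WT viable, WT necrotic, KO viable and KO necrotic, each had 3 libraries. The labels name no separate animals or cultures for the replicates, so p-values measure only how far these samples spread, and that spread may be technical. No group received starved medium without cells, so products of dying cells and a difference in serum cannot be told apart.

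Complex I takes electrons from NADH, passes them along a chain of iron-sulfur clusters to ubiquinone and pumps protons across the inner membrane. Its peripheral arm reaches into the matrix and holds the NADH site, while its membrane arm holds the proton channels, whose core subunits are encoded by the mitochondrial genome. Accessory subunits surround the core, and assembly factors help build the complex without staying in it. Osteoclasts are rich in mitochondria, and respiration rises as they form.

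Library totals ran from 16382366 to 49612055 counts, the deepest being WT viable 3 and the next deepest holding 25429661. A count of 0 allows at most 3 counts, which was 0.0605 to 0.183 counts-per-million (CPM), counting error only. Clec4e lay between 21.9 and 27.8 CPM in the WT libraries and between 1.56 and 2.43 CPM in the KO libraries. All 9 osteoclast markers looked at, among them Acp5, Ctsk and Calcr, passed the filter on low counts. The libraries also differed in how their counts related to transcript length. Spearman's rho between transcript length and a gene's log2 deviation from its mean, across 14110 genes, ran from -0.383 in WT necrotic 1 to 0.322 in KO viable 1. Complex I transcripts are short, with a median of 983 bases against 2750 for all genes tested. Counts and medians of the members are therefore also given with a correction for length and GC content. The same holds for most counts of the other mitochondrial and ribosomal gene lists. Counts of cell type markers are without this correction unless stated.

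Levels differed by role. Per kilobase of transcript, assembly factors had a median level of 12.6 CPM per kb, from 5.42 for Ndufaf6 to 25.2 for Ndufaf8. The core subunits had a median of 86.6 CPM per kb, and Ndufs1 was lowest at 59.9. Accessory subunits of the peripheral arm had a median of 70.8 CPM per kb, from 36.4 for Ndufs4 to 178.1 for Ndufa2. In the membrane arm the median was 116.7 CPM per kb, and Ndufa3 was highest at 191.4. Ndufa4 stood above all of these at 421.6 CPM per kb. Every assembly factor was thus lower than every core subunit and every accessory subunit counted here with the peripheral arm, a group that leaves out Ndufab1. Ndufab1, the mitochondrial acyl carrier protein, and Ndufb2 were low per kb, at 7.12 and 0.957, but the annotated transcripts used for their length were unusually long, with 3479 and 4371 bases. Transcripts of Gm4459 and Ndufab1-ps match Ndufab1 at 99.8% and 99.7%. They were counted at 9.83 and 8.65 CPM on average, so reads can have been shared. Ndufb2 was also the lowest tested member without a length scale, at 4.18 CPM, but its count is uncertain since its exons overlap Gm42420 on the same strand. Ndufb2 and Ndufaf6, at 5.86 CPM, were the members nearest to the filter among those that passed it. Ndufa4l2 had between 0 and 0.29 CPM in single libraries.

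The first comparison asked how WT osteoclasts respond to necrotic supernatant. Of the 45 members tested, 9 rose and none fell, at an adjusted p under 0.05 from edgeR's quasi-likelihood test over all genes. Over all 14153 genes, 4.81% rose and 4.5% fell. The median log2 fold change of the members was 0.12, a fold of 1.09, with a range from -0.15 to 0.28, against -0.01 for all genes tested. It was positive in 40 of 45 members, against 48.4% of all genes tested. The 9 were 5 of the 7 core subunits, Ndufs4 of the 9 peripheral accessory subunits, Ndufa10 and Ndufb9 of the 20 membrane accessory subunits, and Ndufa4. None of the 8 assembly factors passed. In 13 of 45 members all 3 necrotic libraries lay above all 3 viable ones, against 12.4% of all genes tested.

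Osteoclast markers moved with these genes, since 9 of 9 rose in WT with a median log2 fold change of 0.39, and their summed level went from a range of 17320 to 17630 CPM to one of 21870 to 23150 CPM. Macrophage markers also moved, with 7 of 11 higher and 1 lower, and summed levels of 6595 to 7228 CPM and 8231 to 8357 CPM. With the length and GC correction 8 macrophage markers were higher and 1 lower. In a bulk sample, fewer cells of a type and less RNA per cell cannot be told apart, and the part of cell makeup in the result was not tested. The WT count depended on single libraries. Leaving out WT viable 1 gave 17 members, leaving out WT viable 2 gave 1, leaving out WT viable 3 gave 3 and leaving out WT necrotic 2 gave 2. Over all genes tested, 6.48%, 1.44%, 2.59% and 2.09% rose in these fits, in the same order, against 4.81% with all libraries. The WT count was 1 when the 2 WT groups were fitted alone, where 1.57% of all genes tested rose. The median log2 fold change was 0.19 with WT viable 1 left out and 0.07 with WT necrotic 1 left out, when 31 of 45 members were positive.

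In KO osteoclasts, 23 of 45 members rose with necrotic supernatant and none fell. The background was 4% of all genes tested higher and 3.43% lower. The median log2 fold change was 0.26, a fold of 1.2, with a range from -0.01 to 0.44, against 0.00 for all genes tested, and it was positive in 44 of 45 members. By role, 6 of 7 core subunits, 4 of 9 peripheral accessory subunits, 11 of 20 membrane accessory subunits, 1 of 8 assembly factors and Ndufa4 rose. In 38 of 45 members all 3 KO necrotic libraries lay above all 3 KO viable ones, against 16.5% of all genes tested. The same osteoclast markers rose here too, 9 of 9 with a median of 0.39, from a summed level of 15280 to 15600 CPM to one of 19350 to 20150 CPM. Macrophage markers rose in 6 of 11 cases and fell in 1, with summed levels of 7567 to 7592 CPM and 8064 to 8546 CPM. With the length and GC correction 5 macrophage markers rose and 2 fell. The count of 23 members depended on single libraries. Leaving out 1 KO viable library gave 12, 13 or 13 members (replicate 1, 2 or 3), and leaving out 1 KO necrotic library gave 11, 13 or 6 (replicate 1, 2 or 3). The member count was 36 with no filter on low counts and 35 when the 2 KO groups were fitted alone, and no member fell in any of these. Over all genes tested, 2.2%, 1.99% and 1.84% rose without KO viable 1, 2 and 3. Without KO necrotic 1, 2 and 3 the share was 1.89%, 2.38% and 1.38%. With no filter 3.2% of all genes tested rose, and with the KO groups alone 7.06%.

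**Figure D1:**
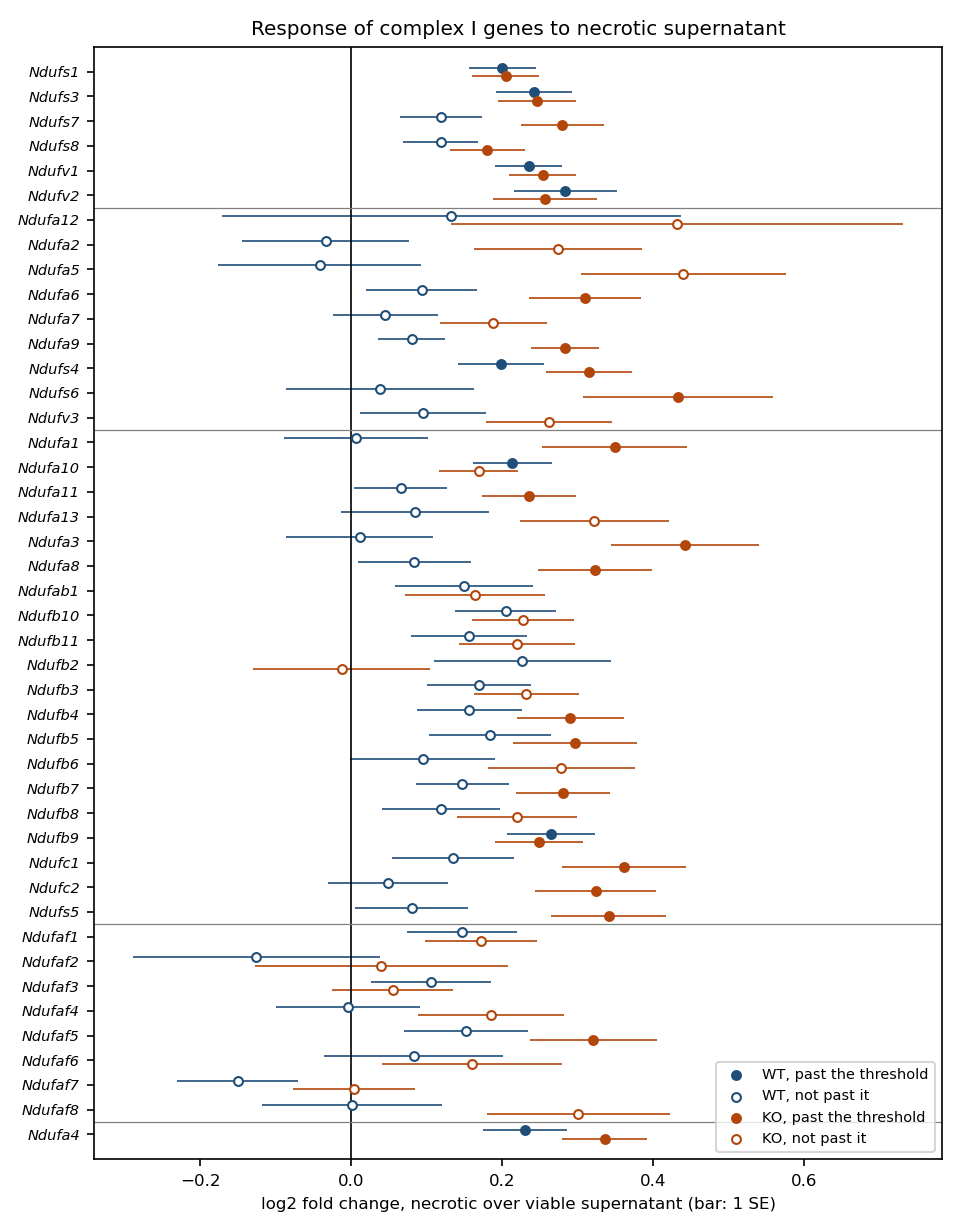
Log2 fold change of necrotic over viable supernatant for 44 of the 45 members tested, in WT (blue) and KO (orange), with bars of 1 SE and lines between the roles (core, peripheral accessory, membrane accessory, assembly factor, Ndufa4). Filled points passed an adjusted p of 0.05, 8 in WT and 23 in KO among those drawn, and no filled point lies below 0.

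The core subunits carry the cofactors. Ndufv1 (ENSMUSG00000037916), which holds the flavin and the NADH site, had 155, 145 and 146 CPM in WT viable and 174, 178 and 173 CPM in WT necrotic. In KO, 142, 134 and 130.4 CPM were counted with viable and 159.8, 158 and 166 CPM with necrotic supernatant. Within each genotype the necrotic libraries lay above all viable ones. The log2 fold change was 0.24 ± 0.04 (SE) in WT (adjusted p = 0.00519) and 0.25 ± 0.04 (SE) in KO (adjusted p = 0.00362). Ndufv1 passed under all 24 alternatives in both genotypes. Ndufv2, its iron-sulfur partner, had 156, 132 and 134 CPM in WT viable and 165, 185 and 163 CPM in WT necrotic. KO cells had 131, 119 and 115 CPM with viable and 145, 142 and 149.6 CPM with necrotic supernatant. Groups did not overlap within a genotype, with log2 fold changes of 0.28 ± 0.07 (SE) in WT and 0.26 ± 0.07 (SE) in KO (adjusted p = 0.0187 and 0.0343). Ndufs1, which carries several iron-sulfur clusters, had 154, 148 and 153 CPM in WT viable and 165, 179.9 and 179 CPM in WT necrotic. In KO, 149.9, 144 and 141 CPM were counted with viable and 167, 165 and 169 CPM with necrotic supernatant. The rise was 0.20 ± 0.04 (SE) in WT and 0.20 ± 0.04 (SE) in KO on the log2 scale, without overlap in either genotype (adjusted p = 0.0119 and 0.012).

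Ndufs3, which joins the NADH end of the arm to the ubiquinone end, had 91.8, 86.1 and 87.6 CPM in WT viable and 104, 112 and 98.04 CPM in WT necrotic. KO cells had 75.4, 78.8 and 77.9 CPM with viable and 88.8, 92.7 and 93.8 CPM with necrotic supernatant. The groups were separate in both genotypes, with log2 fold changes of 0.24 ± 0.05 (SE) in WT and 0.25 ± 0.05 (SE) in KO (adjusted p = 0.00926 and 0.00931). A processed copy, Gm12251, matches Ndufs3 at 98.6% over 792 bases and was counted at 3.59 CPM on average, so reads can have been shared.

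Ndufs7, the subunit of the last iron-sulfur cluster before ubiquinone, had 108, 103 and 107 CPM in WT viable and 127, 112 and 108 CPM in WT necrotic. In KO, 90.9, 91.00 and 93.8 CPM were counted with viable and 107, 112 and 115 CPM with necrotic supernatant. The WT groups were separate but close, at 0.12 ± 0.05 (SE) on the log2 scale (adjusted p = 0.185), and the KO groups were separate at 0.28 ± 0.05 (SE) (adjusted p = 0.00684). Ndufs8, another iron-sulfur subunit, had 90.9, 81.6 and 84.9 CPM in WT viable and 95.6, 94.8 and 89.3 CPM in WT necrotic. KO cells had 73.2, 74.5 and 78.9 CPM with viable and 84.4, 84.96 and 87.6 CPM with necrotic supernatant. WT viable 1 lay among the WT necrotic libraries, and the log2 fold change was 0.12 ± 0.05 (SE) (adjusted p = 0.146). In KO the groups were separate at 0.18 ± 0.05 (SE) (adjusted p = 0.0401).

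**Figure D2:**
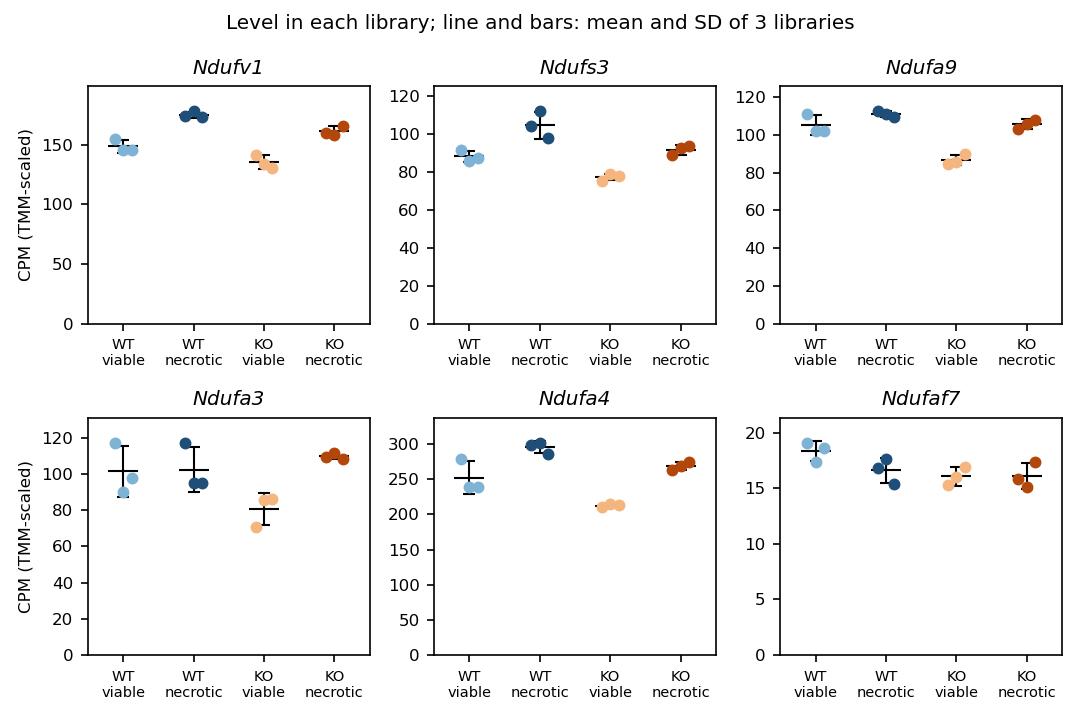
TMM-scaled CPM of 6 members in each of the 12 libraries, with points for libraries and a line and bars for the mean and SD of the 3 libraries of a group. Ndufv1, Ndufs3 and Ndufa4 were higher in the necrotic libraries of both genotypes, Ndufa9 and Ndufa3 were lowest in the KO viable libraries, and the assembly factor Ndufaf7 passed in neither genotype.

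Among accessory subunits of the peripheral arm, Ndufa9, which sits near the junction of the arms, had the smallest p of the set in KO. It had 111, 102 and 102 CPM in WT viable and 113, 111 and 109.8 CPM in WT necrotic. In KO, 84.8, 85.97 and 89.8 CPM were counted with viable and 103, 106 and 108 CPM with necrotic supernatant. WT viable 1 overlapped with the WT necrotic libraries, whereas the KO groups were 86.8 ± 2.6 and 106 ± 2.57 CPM (mean ± SD, n = 3) and did not overlap. The log2 fold change was 0.08 ± 0.04 (SE) in WT (adjusted p = 0.274) and 0.28 ± 0.04 (SE) in KO (adjusted p = 0.00196). Ndufs4, whose loss in mice causes a fatal brain disease used as a model of Leigh syndrome, had 65.96, 58.04 and 58.2 CPM in WT viable and 69.7, 71.8 and 67.4 CPM in WT necrotic. KO cells had 50.7, 53.2 and 52.2 CPM with viable and 63.6, 62.7 and 67.8 CPM with necrotic supernatant. Both genotypes had separate groups, at 0.20 ± 0.06 (SE) in WT and 0.32 ± 0.06 (SE) in KO on the log2 scale (adjusted p = 0.0384 and 0.00404).

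Ndufa6, an accessory subunit that binds the acyl carrier protein, had 97.1, 80.5 and 79.4 CPM in WT viable and 93.2, 94.6 and 85.8 CPM in WT necrotic. In KO, 65.1, 74.8 and 66.2 CPM were counted with viable and 88.1, 84.4 and 82.5 CPM with necrotic supernatant. WT viable 1 was the highest of the 6 WT libraries, with 0.09 ± 0.07 (SE) on the log2 scale (adjusted p = 0.462), while the KO groups were separate at 0.31 ± 0.07 (SE) (adjusted p = 0.0201). Ndufs6, a zinc-binding subunit, had 65.2, 57.5 and 54.5 CPM in WT viable and 78.5, 50.7 and 53.02 CPM in WT necrotic. KO cells had 45.3, 46.6 and 52.95 CPM with viable and 66.9, 61.3 and 67.6 CPM with necrotic supernatant. WT necrotic 1 was above all other WT libraries and the other two necrotic libraries were below all viable ones, so the WT value was 0.04 ± 0.12 (SE) (adjusted p = 0.885). The KO groups were separate at 0.43 ± 0.13 (SE) (adjusted p = 0.0481), but it did not pass under 10 of 24 alternatives.

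Ndufa12, a peripheral accessory subunit, varied most within groups. It had 36.8, 28.03 and 42.4 CPM in WT viable and 63.3, 26.98 and 30.3 CPM in WT necrotic. In KO, 48.7, 36.2 and 30.4 CPM were counted with viable and 63.2, 62.7 and 29.6 CPM with necrotic supernatant. WT necrotic 1 and KO necrotic 1 and 2 lay far above their fellow replicates, and no comparison separated the groups. A transcript of another gene, Gm15920, matches Ndufa12 at 99.5% over 402 bases. Ndufa12 held between 40.4% and 80.9% of the summed level of both, and WT necrotic 1, KO necrotic 1 and KO necrotic 2 had 3 of the 4 highest shares, at 74.7%, 78.1% and 80.9%. The sum itself ran from 50.6 to 84.8 CPM. How reads were divided between the pair is not given in the sources used here, and Ndufa12 is uncertain.

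In the membrane arm, Ndufb9 was the member with the smallest p in WT and Ndufa3 in KO. It had 142, 122 and 119 CPM in WT viable and 154, 158 and 147 CPM in WT necrotic. KO cells had 114, 117 and 109 CPM with viable and 134, 134 and 135 CPM with necrotic supernatant. Groups were separate in both genotypes, at 0.27 ± 0.06 (SE) in WT and 0.25 ± 0.06 (SE) in KO on the log2 scale (adjusted p = 0.0114 and 0.0175). Ndufb7 had 111, 101 and 98.6 CPM in WT viable and 127, 108 and 109 CPM in WT necrotic. In KO, 83.1, 86.03 and 85.5 CPM were counted with viable and 101, 99.6 and 108 CPM with necrotic supernatant. WT viable 1 lay above 2 WT necrotic libraries, and the log2 fold changes were 0.15 ± 0.06 (SE) in WT and 0.28 ± 0.06 (SE) in KO (adjusted p = 0.145 and 0.013).

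Ndufa3 had 117, 89.7 and 97.7 CPM in WT viable and 117, 94.9 and 95.1 CPM in WT necrotic. KO cells had 70.5, 85.4 and 86.3 CPM with viable and 109, 111 and 108 CPM with necrotic supernatant. The WT groups overlapped fully, at 0.01 ± 0.10 (SE), and the KO groups were separate at 0.44 ± 0.10 (SE), the largest log2 fold change of the set (adjusted p = 0.961 and 0.013). Ndufs5 had 93.4, 84.3 and 88.1 CPM in WT viable and 107, 91.2 and 83.8 CPM in WT necrotic. In KO, 67.98, 74.6 and 76.03 CPM were counted with viable and 87.4, 92.2 and 97.5 CPM with necrotic supernatant. WT necrotic 1 was high and WT necrotic 3 was the lowest of the 6 WT libraries, whereas the KO groups were separate, with log2 fold changes of 0.08 ± 0.08 (SE) in WT and 0.34 ± 0.08 (SE) in KO (adjusted p = 0.546 and 0.0134). Ndufa10, which has a fold like that of nucleoside kinases, was one of the 2 members past the threshold in WT and not in KO. It had 195, 173 and 176 CPM in WT viable and 216, 216 and 199 CPM in WT necrotic. KO cells had 164, 168 and 166 CPM with viable and 189.6, 180.2 and 191 CPM with necrotic supernatant. The groups were separate in both genotypes, at 0.21 ± 0.05 (SE) (adjusted p = 0.0202) and 0.17 ± 0.05 (SE) (adjusted p = 0.0642).

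Ndufb2 had the only negative KO value of the membrane arm. It had 3.97, 3.8 and 3.83 CPM in WT viable and 4.26, 4.57 and 4.68 CPM in WT necrotic. In KO, 4.02, 4.3 and 4.29 CPM were counted with viable and 4.55, 4.004 and 3.91 CPM with necrotic supernatant. WT necrotic libraries lay above WT viable ones and the KO groups overlapped, with log2 fold changes of 0.23 ± 0.12 (SE) in WT and -0.01 ± 0.12 (SE) in KO, neither past the threshold (adjusted p = 0.241 and 0.983). Exons of Ndufb2 overlap another gene on the same strand, Gm42420, which was listed at 0 in every library, and Ndufb2 is uncertain. The other 14 membrane accessory subunits had log2 fold changes between 0.01 and 0.20 in WT, none past the threshold, and between 0.16 and 0.36 in KO, where 7 passed.

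The assembly factors had the lowest medians of any role in both responses. Ndufaf5, which in human cells hydroxylates an arginine of NDUFS7, was the only one past the threshold. It had 17.3, 14.9 and 15.9 CPM in WT viable and 18.8, 17.6 and 17.3 CPM in WT necrotic. KO cells had 13.1, 14.8 and 12.3 CPM with viable and 16.1, 16.7 and 17.1 CPM with necrotic supernatant. Groups were separate in both genotypes, in WT by less than the printed digits show, at 0.15 ± 0.08 (SE) in WT (adjusted p = 0.259) and 0.32 ± 0.08 (SE) in KO (adjusted p = 0.0307). The threshold was missed by Ndufaf8 at 0.30 ± 0.12 (SE) in KO, by Ndufaf1 at 0.17 ± 0.07 (SE) and by Ndufaf4 at 0.19 ± 0.10 (SE) (adjusted p = 0.154, 0.185 and 0.281). Ndufaf7, a protein arginine methyltransferase, had 19.1, 17.4 and 18.7 CPM in WT viable and 16.9, 17.6 and 15.4 CPM in WT necrotic. In KO, 15.3, 15.98 and 16.96 CPM were counted with viable and 15.9, 15.1 and 17.4 CPM with necrotic supernatant. Its WT groups overlapped at the lowest log2 fold change of the set, -0.15 ± 0.08 (SE) (adjusted p = 0.255), and its KO value was 0.00 ± 0.08 (SE). The median log2 fold change of the 8 assembly factors was 0.04 in WT and 0.17 in KO, against 0.20 and 0.25 for the 7 core subunits. Assembly factors were counted at lower levels, and the difference between these medians was not tested.

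Ndufa4, counted with complex IV in current descriptions, had 279, 238 and 239 CPM in WT viable and 299, 302 and 286 CPM in WT necrotic. KO cells had 211, 214 and 213 CPM with viable and 262, 268 and 274 CPM with necrotic supernatant. The groups were separate in both genotypes, at 0.23 ± 0.06 (SE) in WT and 0.34 ± 0.06 (SE) in KO on the log2 scale (adjusted p = 0.0192 and 0.00276).

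**Figure D3:**
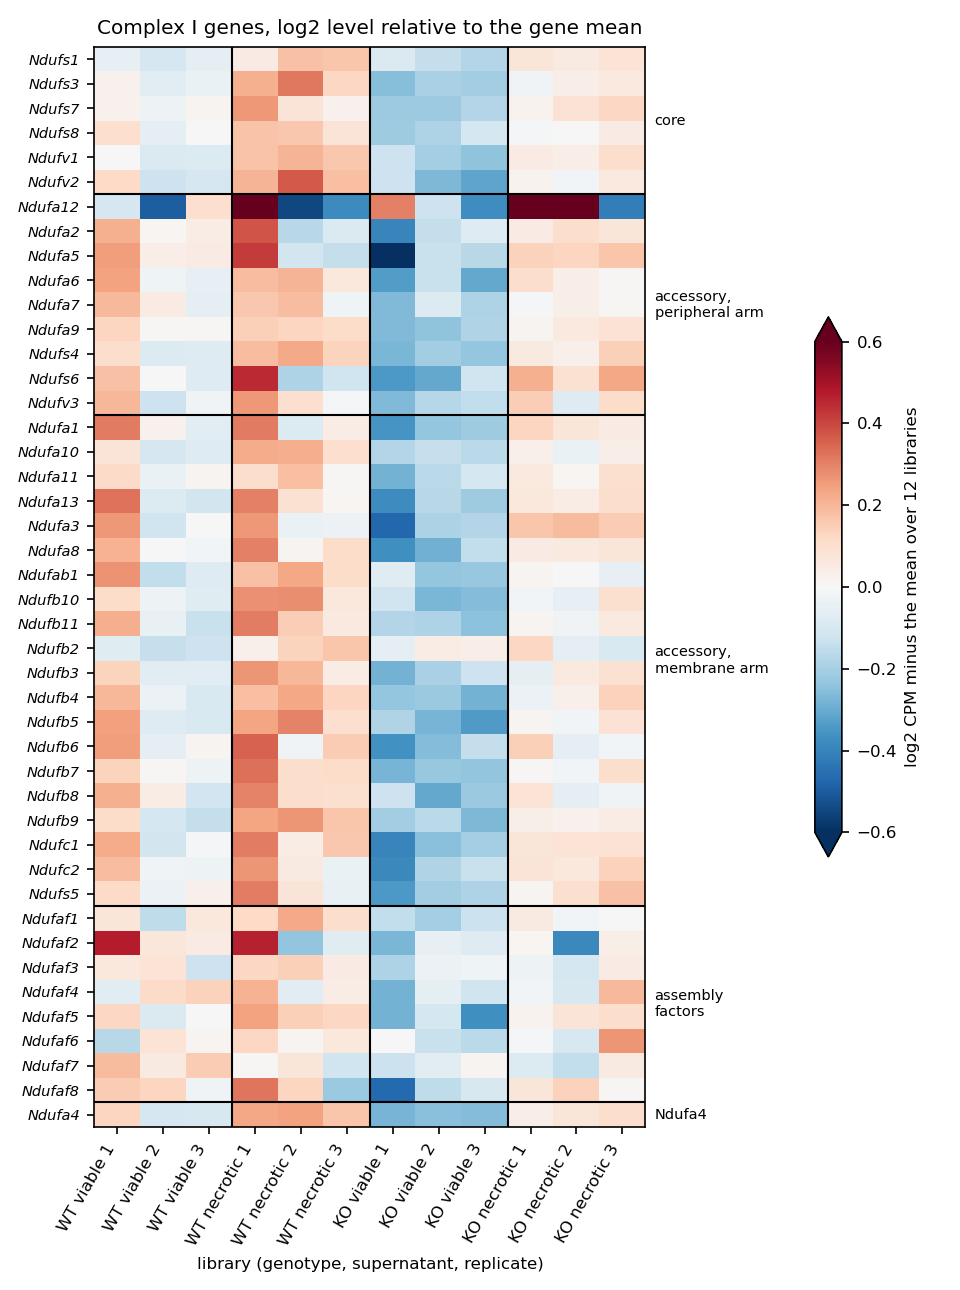
Log2 CPM of each of 44 tested members minus its mean over the 12 libraries, with members grouped by role and libraries by group, red for above and blue for below the mean, and colours capped at 0.6 either way. The KO viable libraries are blue for most members, WT necrotic 1 is the most uniformly red, and Ndufa12 changes between replicates of the same group.

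The design also asks whether the response depends on Mincle, which is the difference of the KO and WT responses. No member passed for this difference, and neither did any other gene, so the background was 0% higher and 0% lower. DESeq2 and limma voom also called no member. The fit without a filter on low counts called 5 members as higher, among 147 genes higher and 62 lower of the 25720 it tested. At an unadjusted p under 0.05 there were 8 members, all with the larger response in KO, which is 17.8% of 45 against 7.52% of all genes tested. The 8 were Ndufa1, Ndufa3, Ndufa5, Ndufa8, Ndufa9, Ndufc2, Ndufs5 and Ndufs6, all accessory subunits. The smallest unadjusted p values were those of Ndufa9, with a difference of 0.20 ± 0.06 (SE) (adjusted p = 0.571), and of Ndufa3, at 0.43 ± 0.14 (SE) (adjusted p = 0.571). Across members the median difference was 0.14 on the log2 scale, against 0.01 for all genes tested, and the KO response was the larger in 39 of 45. With WT viable 1 left out the median difference was 0.08 and 30 of 45 were positive. For the 7 core subunits the median difference was 0.00, with a range from -0.04 to 0.16. For the 9 peripheral accessory subunits it was 0.22, with a range from 0.12 to 0.48.

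Past the threshold, 7 members were called in both genotypes, 2 in WT and not in KO (Ndufa10 among them), 16 in KO and not in WT, and 20 in neither. Over all genes tested 4.81% rose in WT and 4% in KO, and how far those calls overlap was not counted. Of the 16 members called in KO and not in WT, Ndufb7 had the smallest p in WT (adjusted p = 0.145) and Ndufa1 the largest (adjusted p = 0.977). Ndufa1, a small membrane subunit encoded on the X chromosome, had 94.2, 77.1 and 72.2 CPM in WT viable and 94.1, 71.7 and 78.1 CPM in WT necrotic. In KO, 59.3, 64.5 and 65.5 CPM were counted with viable and 82.9, 79.7 and 78.5 CPM with necrotic supernatant. WT viable 1 and WT necrotic 1 stood together above the other WT libraries, which also overlapped between the supernatants. WT showed 0.01 ± 0.10 (SE), while the KO groups were separate at 0.35 ± 0.10 (SE) (adjusted p = 0.0395). Calls past the threshold in one genotype and not the other do not show a difference between genotypes, given the interaction test above.

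Under viable supernatant, 14 of 45 members were lower in KO than in WT and none was higher, with a background of 2.97% lower and 2.87% higher. The median log2 difference was -0.22, a fold of 0.858, and it was negative in 43 of 45 members. The 14 were 3 core subunits, 3 peripheral accessory subunits, 7 membrane accessory subunits and Ndufa4. The largest was Ndufa1 at -0.36 ± 0.10 (SE) (adjusted p = 0.0437), from the values given above, in which every KO viable library lay below every WT viable one. Ndufa8 had 116, 100.2 and 99.4 CPM in WT viable and 77.8, 82.2 and 90.8 CPM in KO viable, also without overlap (-0.33 ± 0.08 (SE), adjusted p = 0.0237). Ndufc1 had 60.5, 48.1 and 51.6 CPM and 39.4, 43.7 and 45.02 CPM in the same groups (-0.32 ± 0.08 (SE), adjusted p = 0.0369). Ndufb5 had 71.4, 56.99 and 56.6 CPM and 53.2, 49.6 and 47.5 CPM (-0.30 ± 0.08 (SE), adjusted p = 0.0472). These groups were separate as well, and so were those of Ndufa6 at -0.32 ± 0.07 (SE) (adjusted p = 0.0262). The smallest adjusted p was that of Ndufa9, 0.00295, at -0.28 ± 0.04 (SE).

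This comparison and the KO response share the KO viable libraries, and it shares the WT viable libraries with the WT response, so their values are not independent. The summed level of the 46 members was 3598 to 4110 CPM in WT viable, 3953 to 4424 CPM in WT necrotic, 3181 to 3275 CPM in KO viable and 3845 to 3945 CPM in KO necrotic. KO viable lay below all other libraries, and KO necrotic lay within the range of WT viable. Summed osteoclast markers were also lower in KO viable than in WT viable, at the ranges given above, and 2 of 9 passed as lower. Macrophage markers went the other way, with 2 of 11 higher in KO viable and summed levels that did not overlap, also at the ranges given above. With the length and GC correction 1 osteoclast marker was lower and 4 macrophage markers were higher. Stromal and bone markers, of which 5 of 10 were tested, summed to 49.9 to 79.9 CPM in WT viable and 12.2 to 34.4 CPM in KO viable, and 3 passed as lower. Neutrophil markers summed to 1379 to 1465 CPM in WT viable and 1245 to 1335 CPM in KO viable, with 1 of 9 higher and 1 lower. No dendritic cell, lymphoid, or erythroid and platelet marker tested passed. The part of these markers in the result was not tested. The count of 14 was sensitive to single libraries, being 1 with WT viable 1 left out, 6 with WT viable 2 left out, 1, 2 or 2 with KO viable 1, 2 or 3 left out, and 5, 6 or 7 with KO necrotic 1, 2 or 3 left out. Over all genes tested, 421 were lower in the main fit, and 139 and 142 with WT viable 1 and 2 left out. With KO viable 1, 2 and 3 left out, 186, 97 and 108 genes were lower. With KO necrotic 1, 2 and 3 left out, 238, 281 and 293 were lower.

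Under necrotic supernatant, 2 of 45 members were lower in KO than in WT and none was higher, against 3.12% lower and 5% higher over all genes tested. Ndufs3 was one of them, at -0.19 ± 0.05 (SE) (adjusted p = 0.0334), and in it every KO necrotic library lay below every WT necrotic one. The median was -0.10 on the log2 scale and negative in 40 of 45 members. Of 9 osteoclast markers, 3 were lower in KO necrotic than in WT necrotic and none was higher, with summed levels that did not overlap. Of 9 neutrophil markers, 5 were lower, with a summed level of 1225 to 1405 CPM in WT necrotic and 1160 to 1200 CPM in KO necrotic. Of 11 macrophage markers, 1 was higher and 1 lower, and with the length and GC correction 0 were higher and 2 lower. The part of these markers in the result was not tested. The count of members lower in KO was 0 with WT necrotic 2 or any one of KO necrotic 1, 2 and 3 left out, and 1 with KO viable 2 left out. It was 1 with WT necrotic 1 left out (where 1 other member was higher), 4 with WT viable 3 left out, and 6 with WT viable 1 or WT necrotic 3 left out. Over all genes tested, 442 were lower in the main fit and 101 with WT necrotic 2 left out. With KO necrotic 1, 2 and 3 left out, 61, 124 and 189 genes were lower. With KO viable 2 left out it was 301 genes, with WT necrotic 1 left out 449 and with WT viable 3 left out 481. With WT viable 1 or WT necrotic 3 left out, 641 or 479 genes were lower.

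The libraries' length trends are set beside the members' levels here, since both differed between groups. By library, rho between length and the log2 deviation was -0.369, 0.057 and 0.116 in WT viable, -0.383, -0.282 and -0.058 in WT necrotic, 0.322, 0.289 and 0.247 in KO viable and 0.119, 0.091 and -0.029 in KO necrotic. The median log2 deviation of the members was 0.13, -0.05 and -0.03 in WT viable, 0.24, 0.13 and 0.07 in WT necrotic, -0.27, -0.19 and -0.18 in KO viable and 0.03, 0.03 and 0.08 in KO necrotic. The KO viable libraries had the highest rho and the lowest medians, WT necrotic 1 had the lowest rho and the highest median, and WT viable 1 stood apart from its fellow replicates on both measures. With smooth trends on length and GC content removed, the medians were 0.05, -0.05 and -0.0002 in WT viable, 0.16, 0.08 and 0.09 in WT necrotic, -0.14, -0.13 and -0.15 in KO viable and 0.03, 0.03 and 0.05 in KO necrotic. The groups kept their order and the spread within groups became smaller, from an SD of 0.10 to 0.05 in WT viable and from 0.05 to 0.01 in KO viable.

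**Figure D4:**
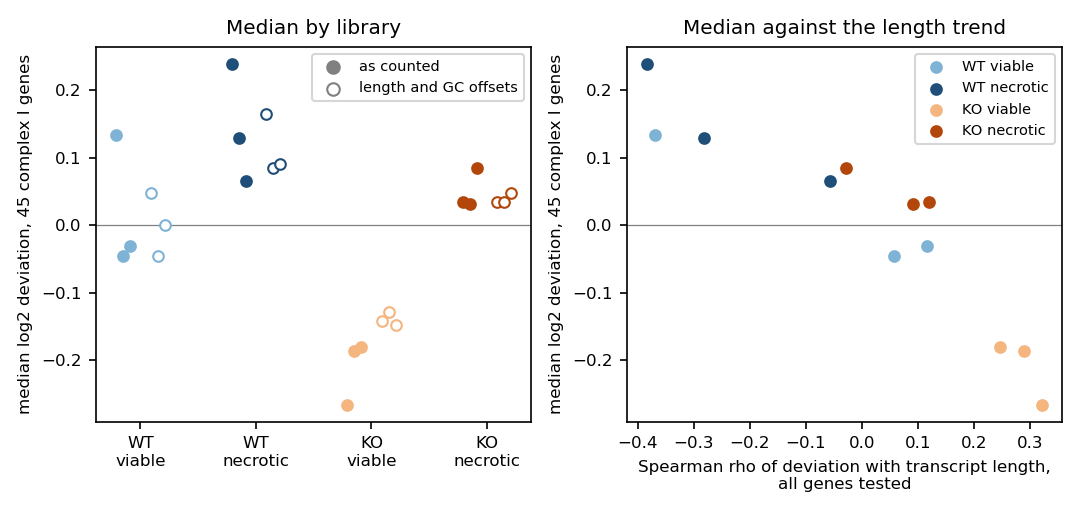
Left, median log2 deviation of the 45 members in each library, as counted (filled) and after removal of trends on transcript length and GC content (open), by group. Right, the median as counted against the library's Spearman rho between deviation and transcript length over 14110 genes, where the KO viable libraries lie at the positive end and WT viable 1 and WT necrotic 1 at the negative end.

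With this correction in the fit, 11 members rose in WT, against 5.75% of all genes tested, and the median was 0.10. They included all 9 called without it, and Ndufb3 and Ndufb10 were added. In KO, 22 rose, against 4.67%, with a median of 0.20. Of these, 18 were among the 23 called without it. Ndufa11, Ndufaf5, Ndufb5, Ndufs8 and Ndufv2 dropped out, and those that came in included Ndufa10, Ndufa13 and Ndufv3. No member passed for the difference of responses, whose median went from 0.14 to 0.07. Under viable supernatant 6 of the 14 genotype calls stood, against 2.44% of all genes lower, and the median was -0.16. Under necrotic supernatant the 2 calls became Ndufa4 and Ndufv2, and Ndufs3 did not pass.

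Within classes of length the members could be set beside other genes of like length. Of the 23 members with transcripts under 1000 bases, 13 rose in KO, against 4.95% of the 1658 genes of that class, and the median log2 fold changes were 0.28 and 0.11. In WT 2 of these 23 rose, against 3.26%, with medians of 0.08 and 0.01. Of the 17 members of 1000 to 2000 bases, 9 rose in KO, against 5.85% of 3062 genes, with medians of 0.26 and 0.05. In WT 5 of these 17 rose, against 7.18%, with medians of 0.13 and 0.05. Across members, rho of the log2 fold change with length was 0.394 in WT and -0.439 in KO, while across all genes it was -0.186 and -0.240. Longer members thus tended to have the larger WT response and the smaller KO response, as a description of 45 genes that share libraries. Under viable supernatant the members under 1000 bases had a median genotype difference of -0.28 against -0.15 for their class, and those of 1000 to 2000 bases -0.19 against -0.08.

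**Figure D5:**
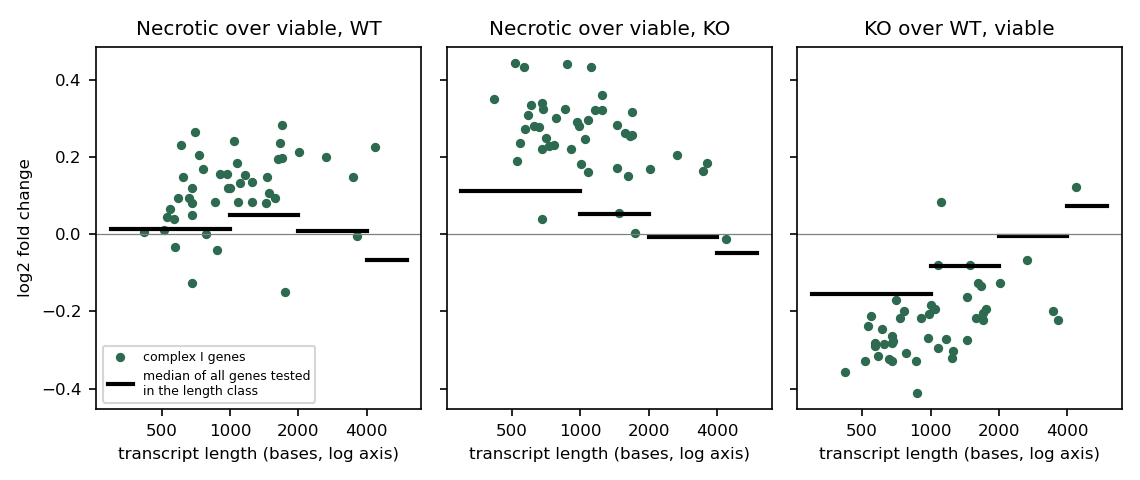
Log2 fold change against transcript length (log axis) for the 45 members (points) and the median of all genes tested in each of 4 length classes (black lines), for the WT response, the KO response and KO over WT under viable supernatant. Members lie mostly above the class medians in both responses and mostly below them in the genotype comparison, and class medians fall with length in KO and rise with length in the genotype comparison.

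The mitochondrial genome encodes the other 7 core subunits, the mt-Nd genes. None of these passed in WT, 1 passed in KO and none passed for the difference. With the length and GC correction 3 of the 7 rose in WT and 1 in KO. mt-Nd4 had 1541, 1471 and 1550 CPM in WT viable and 1823, 1504 and 1503 CPM in WT necrotic. KO cells had 1292, 1474 and 1485 CPM with viable and 1752, 1689 and 1752 CPM with necrotic supernatant. The WT groups overlapped and the KO groups were separate, at 0.29 ± 0.07 (SE) on the log2 scale in KO (adjusted p = 0.0216). mt-Nd1 was at 0.18 ± 0.06 (SE) in KO (adjusted p = 0.0957), and mt-Nd6 at 0.43 ± 0.13 (SE) in WT (adjusted p = 0.0506). Under necrotic supernatant 3 of the 7 mt-Nd genes were higher in KO than in WT, against 5% of all genes tested. The 2 of 45 nuclear members called there, 4.44% against 3.12% of all genes tested, were lower. On average mt-Nd3 and mt-Nd4l were counted at only 3.52 and 2.26 CPM, and the other mt-Nd genes at 705 CPM or more. Mean levels in WT and KO necrotic were 2.22 and 5.02 CPM for mt-Nd3 and 1.67 and 3.18 CPM for mt-Nd4l. For mt-Nd5 they were 2135 and 3085 CPM. For mt-Nd6 they were 805 and 744 CPM, with overlapping libraries, and 0 of the mt-Nd genes passed as lower in KO. Of 10 assembly genes without an Nduf symbol, 1 rose in KO and none in WT, and with the correction none passed in either. That gene was Tmem70, known for its part in building complex I and ATP synthase, at 0.21 ± 0.05 (SE) in KO (adjusted p = 0.0222). Dmac1 and Timmdc1 were at 0.19 ± 0.07 (SE) and 0.24 ± 0.09 (SE) in KO without passing (adjusted p = 0.103 and 0.105).

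The other respiratory complexes moved the same way. Of 38 nuclear genes of complexes II to V, 18 rose in WT and 27 in KO, none fell, and the median log2 fold changes were 0.17 and 0.28. With the length and GC correction 25 rose in WT and 26 in KO, with medians of 0.17 and 0.21. By complex, the counts in WT and KO were 4 and 4 of 4 for complex II, 5 and 7 of 9 for complex III, 4 and 6 of 10 for complex IV, and 5 and 10 of 15 for complex V. The smallest p values were those of Sdhd in WT, at 0.25 ± 0.04 (SE, adjusted p = 0.0034), and of Cyc1 in KO, at 0.33 ± 0.05 (SE, adjusted p = 0.000648). Mitochondrial ribosomal proteins passed in 7 of 77 cases in WT and 11 of 77 in KO. Cytosolic ribosomal proteins, which are similarly short with a median of 886 bases, passed in 1 of 75 cases in each genotype, with medians of 0.02 and 0.10. With the correction the counts in WT and KO were 11 and 8 for the mitochondrial and 1 and 2 for the cytosolic ribosomal proteins. Under viable supernatant, however, 14 of 75 cytosolic ribosomal proteins, 10 of 77 mitochondrial ones and 14 of 38 genes of complexes II to V were lower in KO, with medians of -0.23, -0.17 and -0.22. The complex I count there was 14 of 45, with a median of -0.22. With the correction the counts fell to 4 of 75, 6 of 77 and 8 of 38, with medians of -0.13, -0.13 and -0.12, and that of complex I to 6 of 45 with a median of -0.16. No difference between lists was tested.

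Of 11 regulators of mitochondrial biogenesis tested, none passed in WT, and in KO 1 rose and 1 fell. With the length and GC correction 1 rose in KO and none fell, so the fall of Pprc1 did not stand. Esrra, a nuclear receptor that activates respiratory genes, had 90.3, 90.9 and 88.9 CPM in WT viable and 107, 92.2 and 98.9 CPM in WT necrotic. In KO, 86.3, 84.2 and 86.9 CPM were counted with viable and 95.7, 101 and 101 CPM with necrotic supernatant. WT viable and KO viable libraries lay below the necrotic libraries of their genotype, and the log2 fold change was 0.21 ± 0.05 (SE) in KO (adjusted p = 0.0216) and 0.14 ± 0.05 (SE) in WT (adjusted p = 0.0876). Pprc1, a coactivator of the PGC-1 family, fell by 0.26 ± 0.07 (SE) on the log2 scale in KO (adjusted p = 0.0416). Ppargc1b, the PGC-1 family member known to drive mitochondrial biogenesis in osteoclasts, had 22.5, 31.5 and 30.3 CPM in WT viable and 32.7, 27.99 and 30.6 CPM in WT necrotic. KO cells had 28.3, 33.6 and 32.2 CPM with viable and 41.4, 36.2 and 36.2 CPM with necrotic supernatant. KO necrotic libraries were the highest, at 0.28 ± 0.11 (SE) over KO viable without passing (adjusted p = 0.132). Ppargc1a was not tested, with at most 0.158 CPM in any library.

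Promoters were read for letters that such regulators are known to bind. RefSeq windows on GRCm38.p6, 250 bases before to 50 after a transcription start, were held for 40 of 46 members. Both strands were searched for GCGCATGC (NRF1), CCGGAAGT (ETS factors such as GABPA), AAGGTCA (estrogen-related receptors), AAGATGGC (YY1) and GGGCGG (GC box). No match of one of the first 4 overlapped a match of another. The YY1 letters were in 8 of 40 members, 20%, against 3.64% of 16522 protein-coding genes with a window. The NRF1 letters were in 5, 12.5% against 4.11%. The ETS letters were in 1, Ndufs3, 2.5% against 5.94%, the estrogen-related receptor letters in 3 (Ndufb2, Ndufb4 and Ndufs5), 7.5% against 4.62%, and the GC box in 21, 52.5% against 51%. The genes used for comparison were not limited to those that passed the filter on low counts. A match is a description of letters, not of a bound site.

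The 8 YY1 matches are shown because all lay on the coding strand within the first 50 transcribed bases, a placement found in 1.3% of all windows and 19% of the members' 42 windows. Each line gives 30 bases, 5′ to 3′ on the gene's strand, with the matched letters in capitals.
Ndufa3 (chr7:3617384-3617413, plus strand): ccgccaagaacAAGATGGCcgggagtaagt
Ndufa9 (chr6:126849097-126849126, minus strand): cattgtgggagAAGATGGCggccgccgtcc
Ndufaf8 (chr11:120098933-120098962, plus strand): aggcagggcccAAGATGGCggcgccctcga
Ndufb8 (chr19:44555393-44555422, minus strand): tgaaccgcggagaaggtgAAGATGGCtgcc
Ndufc1 (chr3:51408915-51408944, minus strand): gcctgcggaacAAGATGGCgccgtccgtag
Ndufs4 (chr13:114388045-114388074, minus strand): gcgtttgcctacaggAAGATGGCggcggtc
Ndufs6 (chr13:73328433-73328462, minus strand): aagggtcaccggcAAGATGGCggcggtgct
Ndufs7 (chr10:80249462-80249491, plus strand): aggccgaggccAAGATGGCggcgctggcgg
In 7 of the 8, all but Ndufaf8, the ATG within these letters is an annotated start codon of the gene, so the letters also belong to the start of the reading frame. Of the 8 members, 6 rose in KO (Ndufa3, Ndufa9, Ndufc1, Ndufs4, Ndufs6 and Ndufs7) and 1 in WT (Ndufs4). Of the 32 members with a window and no such letters, 15 rose in KO and 5 in WT. The transcript of YY1 itself passed in neither genotype, with 89.9, 96.8 and 94.3 CPM in WT viable and 92.1, 83.96 and 81.5 CPM in WT necrotic. Its KO levels were 88.03, 99.6 and 99.1 CPM with viable and 97.6, 95.2 and 91.02 CPM with necrotic supernatant.

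The 5 members with NRF1 letters are shown with the first match in the window, on either strand. Of these, 4 (Ndufa11, Ndufa6, Ndufa8 and Ndufaf5) rose in KO, and with the length and GC correction Ndufa11 and Ndufaf5 did not pass.
Ndufa11 (chr17:56717691-56717720, plus strand): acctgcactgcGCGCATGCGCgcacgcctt
Ndufa6 (chr15:82354356-82354385, minus strand): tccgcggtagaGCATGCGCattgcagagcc
Ndufa8 (chr2:36049328-36049357, minus strand): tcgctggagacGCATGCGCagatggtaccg
Ndufaf4 (chr4:24897959-24897988, plus strand): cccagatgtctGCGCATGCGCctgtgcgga
Ndufaf5 (chr2:140170651-140170680, plus strand): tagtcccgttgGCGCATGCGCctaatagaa
The matches lay between 113 bases before and 17 bases after the start, and none rose in WT. Nrf1 itself passed in neither genotype, with 32.96, 32.4 and 33.2 CPM in KO viable and 32.2, 32.7 and 32.6 CPM in KO necrotic.

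Some members share sequence with other genes, so their counts are uncertain. A stretch of at least 200 bases at 95% identity or more was found in transcripts of another gene for 12 members, exons overlapped a gene on the opposite strand for 17, and exons overlapped a gene on the same strand for 3 (Ndufb2, Ndufb8 and Ndufb9). In all 23 members had at least 1 of these. Among the 23 that had none, 5 rose in WT and 13 in KO, with medians of 0.12 and 0.28, and 9 were lower in KO under viable supernatant. Over all genes tested the shares were 4.81%, 4% and 2.97%, in the same order.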

How the data were processed

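RNA of 12 osteoclast samples was sequenced with paired ends from NEBNext Ultra libraries, per the labels' protocols. The values used are raw counts per Ensembl gene that the authors deposited in 1 table, whole numbers without normalization, whose column names match the sample titles that gave the groups. CASAVA, HISAT2 2.0.5, HTSeq 0.6.1 and GRCm38 are named in the submitters' processing notes. For the gene annotation, the strandedness of counting and reads with several matches, the setting is not given in the sources used here. Symbols, transcript lengths and GC contents came from GENCODE M21 on GRCm38, which matched 46488 of 46983 identifiers and left 495 unmatched.

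Low counts were removed by filterByExpr (edgeR 4.0.16, R 4.3.3), which kept at least 99.916% of each library's counts, and scaled with TMM factors. A quasi-likelihood model of 4 group means was fitted to all 12 libraries (8 residual degrees of freedom, biological coefficient of variation 7.18%). All tests were two-sided, p was adjusted by Benjamini-Hochberg over the 14153 genes that passed, and the threshold was 0.05. Unless another tool is named, every p and adjusted p comes from this test, and levels are TMM-scaled CPM. Within groups, replicates differed by more than sampling noise, with a chi-square per degree of freedom between 3.23 and 22.7. The correction for length and GC content used per-library offsets from smooth trends of log2 CPM with 5 spline degrees of freedom. Alternatives were other scaling factors, DESeq2 1.42.0, limma 3.58.1 with voom, other filters, the compared groups alone, a replicate block, the offsets, the deepest library thinned to 20294844 counts, and each library left out. Leaving out WT viable 1 and WT necrotic 1 together was added after seeing the data. The pipeline was tested on simulated data.

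The text names nuclear core subunits, the members of each other role with the smallest p, members called between genotypes, the highest and lowest, and those that differ in call between WT and KO. Ndufa12, Ndufaf7 and Ndufb2 were also described after their values were seen. The members and lists were chosen with earlier results of these data known. Ndufa11b, Ndufb4c, Ndufs6b and Ndufab1-ps, annotated as processed pseudogenes, were left out. Values of 1 gene are not reported here.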

Additional observations from a re-analysis of the deposited data

How the results depend on the processing

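No call of a single member and no median over members changed direction under the 11 alternative settings, under omission of 1 library at a time, or with WT viable 1 and WT necrotic 1 both left out. Among members without a call in KO, values near 0 changed sign with the length and GC offsets in Ndufb2 (-0.01 to 0.0012), Ndufaf7 (0.0037 to -0.02) and Ndufaf2 (0.04 to -0.06). Of the 48 calls of single members, 7 passed under every alternative: Ndufv1 in WT and KO, Ndufa4, Ndufa9, Ndufs4 and Ndufs7 in KO, and Ndufa9 between genotypes under viable supernatant. The WT count of 9 was 1 with the compared groups alone, 14 with both WT replicate 1 libraries left out, and ranged from 1 to 17 with 1 library left out. The KO count of 23 was 36 without a filter, 35 with the compared groups alone, and ranged from 6 to 30 with 1 library left out, and its median log2 fold change was 0.20 with length and GC offsets (0.2001) and with the replicate block added (0.2004). The count for the difference of responses, 0, was 5 without a filter, where 0.572% of all genes tested were higher. For this difference the fit with the compared groups alone was not run since all 4 groups enter it. The genotype count of 14 under viable supernatant was 22 with DESeq2, 31 without a filter, 5 with the compared groups alone, 6 with offsets, 5 with offsets and the replicate block (median -0.16), 6 with both WT replicate 1 libraries left out, and ranged from 1 to 21 with 1 library left out. Under necrotic supernatant the count of 2 was 4 with upper-quartile factors, 5 with DESeq2, 7 without a filter (1 of them higher), 4 with the deepest library thinned, 5 with both WT replicate 1 libraries left out (1 of them higher), and ranged from 0 to 6 with 1 library left out. Across all these fits, the share of all genes tested that rose ran from 1.44% to 6.89% in WT and from 1.38% to 7.06% in KO. The number of genes lower in KO ran from 97 to 796 under viable and from 61 to 699 under necrotic supernatant. Fits with the compared groups alone and with fewer libraries have fewer residual degrees of freedom, and a fit with no filter tests more genes. The counts went up under some of these fits and down under others, and why was not tested for any setting.

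Whether the replicate numbers pair the samples is not given in the labels, and correlations between libraries cannot settle it. Correlations of same-numbered deviations ran from -0.255 to 0.143 and were over 0.1 in 2 of 18 pairs. Of 12 libraries, 6 correlated best with their own number. With the replicate block the counts were 8 in WT, 24 in KO, 0 for the difference, 13 under viable and 3 under necrotic supernatant. Over all 14153 genes tested in that fit, 4.31% rose in WT and 3.59% in KO, and 0 passed for the difference. Lower in KO were 376 genes under viable and 446 under necrotic supernatant. Depth limits Ndufa4l2 most, whose 25 reads in all allow no comparison.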

Other observations

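Markers of other cell types had these counts with necrotic supernatant. Of 7 dendritic cell markers tested, 2 fell in each genotype, and their summed level went from 29.2 to 32.2 CPM to 23.1 to 24.8 CPM in WT and from 28.6 to 32.2 CPM to 23.1 to 24.9 CPM in KO. Of 9 neutrophil markers, 2 rose and 3 fell in WT and 3 fell in KO. Of 3 lymphoid markers tested, 2 fell in WT and 1 in KO. Of 4 erythroid and platelet markers tested, none passed in either genotype. Of 5 stromal and bone markers tested, 1 rose and 3 fell in WT, and 1 rose in KO.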
